A study of Mus musculus with 12 samples.

Results

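The respiratory chain of the mitochondrial inner membrane passes electrons from NADH and succinate to oxygen through complexes I to IV, and the proton gradient that this builds drives ATP synthase, also called complex V. Its subunits come from both genomes. The mitochondrial genome (mtDNA) encodes membrane-core subunits of complexes I, III, IV and V, while all complex II subunits and most other subunits are made from nuclear genes and imported. Enterocytes, the absorptive cells of the intestine, use this machinery to burn glutamine, glucose and fatty acids.

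Members were the protein-coding genes whose symbols name a subunit of complexes I to V, by the families Ndufa, Ndufb, Ndufc, Ndufs and Ndufv followed by a digit, Sdha to Sdhd, Uqcr, Cyc1, Cox4 to Cox8, Atp5 and the mtDNA-encoded mt-Nd, mt-Co, mt-Atp and mt-Cytb. The rule found 98 genes among 47643 in the table, of which 21620 were protein-coding, and it used no measured value. Of these, 85 were nuclear, with 37 in complex I, 4 in complex II, 9 in complex III, 18 in complex IV and 17 in complex V, and 13 were mitochondrial, with 7 in complex I, 1 in complex III, 3 in complex IV and 2 in complex V. The complex was assigned by symbol, so Ndufa4, now regarded as a complex IV subunit, was counted with complex I. Some accessory subunits fall outside the symbols, such as Ndufab1.

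Bulk RNA-seq was made from intestine of male C57BL/6 mice aged 7 to 8 weeks, in 4 groups of 3 libraries. Pparafl/fl mice, whose Ppara alleles are flanked by recombinase sites and which are titled WT, and PparaΔIE mice, titled KO and named in the usual notation for loss of Ppara from the intestinal epithelium, each ate chow or a 60% high-fat diet (HFD) for 10 days. Ppara encodes a fatty acid-binding nuclear receptor that drives fatty acid oxidation genes. The labels name no intestinal segment, recombinase line or deleted exon, and nothing in them ties each library to its own mouse, so the p-values here rest on sample-to-sample spread that may be only technical.

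Library totals ran from 33620991 to 53959367 expected counts, and a level of 1 CPM (the count scaled to a common library size) was worth 32.7 to 52.8 counts. All 8 enterocyte markers exceeded a mean of 1 CPM, and the ileal bile acid binding protein gene Fabp6 stood at 3069 to 4502 CPM. The enterocyte score (the mean centred log2 level of the list) was lower in the chow libraries, at -0.30 to -0.17, than in the HFD libraries, at -0.04 to 0.48, and 3 of the 8 markers were called higher and 1 lower on HFD. Ppara, the targeted gene, stood at 18.1 to 22 CPM in WT chow, 8.42 to 15.6 CPM in KO chow, 33.7 to 39.3 CPM in WT HFD and 11.1 to 17.3 CPM in KO HFD, with a genotype log2 fold change of -1.07 ± 0.15 averaged over diets (SE; adjusted p = 0.0131). On HFD it was -1.46 ± 0.21 (adjusted p = 0.0308), while on chow it was -0.68 ± 0.21 and not called (adjusted p = 0.251). The KO libraries of both diets kept part of the Ppara level, and WT HFD stood above WT chow. Some libraries stood apart from their group. The score of the proximal small intestine markers (Lct, Cyp2b10, Gata4, Onecut2, Slc40a1 and Cybrd1), was between -0.86 and -0.74 in the 3 WT chow libraries, but -1.06, 0.67 and 0.40 in KO chow, 0.77, 0.78 and -0.18 in WT HFD, and -0.23, 0.80 and 0.50 in KO HFD. Lct, Cyp2b10 and Gata4 carried this score: Lct had 0.45 to 2.75 CPM in WT chow and KO chow 1 and 50.2 to 256 CPM in the other 8 libraries, whereas Slc40a1 went the other way in WT, with 114 to 144 CPM on chow and 65 to 104 CPM on HFD, and Onecut2 stayed under 1 CPM. The distal ileum score was also lowest in the 3 WT chow libraries and KO chow 1, at -0.33 to -0.20 against -0.13 to 0.24 elsewhere. In that list Fgf15 had 12.1 to 16.7 CPM in those 4 libraries and 69.4 to 159 CPM in the others. Slc51b went the other way, with 125 to 148 CPM in those 4 and 83 to 116 CPM in the others. Fabp6, Slc10a2, Guca2a and Slc51a overlapped between these sets of libraries. The smooth muscle score was higher in KO HFD, at 0.39 to 0.71, than in WT HFD, at -0.74 to 0.12. The biological coefficient of variation was 0.0583 within WT chow and 0.140 to 0.151 within the other groups.

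For the sequences that bear on how the mtDNA genes could be counted, the genes lie end to end on the circular genome and some share bases. The 3′ end of mt-Atp8 and the 5′ end of mt-Atp6, both subunits of the ATP synthase membrane part, overlap by 43 bases at chrM:7927-7969 (mm10, plus strand), and mt-Nd4l and mt-Nd4, both complex I subunits, overlap by 7 bases at chrM:10167-10173. Each overlap is shown with the 12 bases before it, and capitals mark the start codon of the downstream gene.
mt-Atp8 and mt-Atp6, chrM:7915-7969: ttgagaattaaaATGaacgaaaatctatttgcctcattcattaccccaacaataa
mt-Nd4l and mt-Nd4, chrM:10155-10173: caacctactacaATGctaa
A read from such a stretch belongs to both genes. In addition, nuclear pseudogenes hold copies of mtDNA: 7 of the 13 mtDNA members shared at least 25% of their 31-base words with an annotated pseudogene. For mt-Co2, mt-Co3, mt-Atp6, mt-Nd3 and mt-Nd4l the share was 98.1% to 99.9%, and the chromosome 1 pseudogenes matching these 5 carried 111% to 219% of the member's own level. Reads of these genes could therefore have been split between genes in the deposited counts, and values for the 7 are also given with the pseudogene reads added, a setting chosen after seeing the data.

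The mtDNA genes lay above most nuclear members in level. Per kb of transcript and averaged over all 12 libraries, the mtDNA genes ran from 46.4 CPM per kb for mt-Nd4l to 5523 CPM per kb for mt-Co1, the catalytic subunit of complex IV, with a median of 789. The 79 nuclear members that passed the filter on low counts ran from 1.67 CPM per kb for Atp5s to 654 for Atp5b, the catalytic beta subunit of ATP synthase, with a median of 96.3. By complex, the nuclear medians per kb were 49.4 CPM for complex I, 112 for complex II, 133 for complex III, 193 for complex IV and 166 for complex V. In all, 92 of the 98 members were tested, among 17602 genes tested.

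The 6 members that did not pass the filter were isoforms known from other tissues or states. Cox6a2 and Cox8b, the striated muscle isoforms of their families, did not exceed 0.122 and 0.0579 CPM in any library. Cox4i2, an isoform known from lung, reached 0.105 CPM, and Ndufa4l2, a hypoxia-induced paralogue of Ndufa4, reached 0.149 CPM. Cox7b2 and Cox8c, known from testis, had no count in any library. Their partners Cox4i1, Cox6a1, Cox7b and Cox8a stood at 468, 317, 155 and 448 CPM per kb.

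Other families were mixed in this tissue. Cox7a1, the heart and muscle isoform of the COX7A family, was present at 71.6 CPM per kb beside 171 for Cox7a2, the form of most tissues, and 101 for Cox7a2l, which joins supercomplexes. Cox6b2, a testis isoform, was present at 3.67 CPM per kb beside 296 for Cox6b1. Of the 3 genes that encode the same mature c subunit of the ATP synthase ring, Atp5g3 led with 296 CPM per kb, followed by Atp5g2 with 96.3 and Atp5g1 with 19.4.

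**Figure D1:**
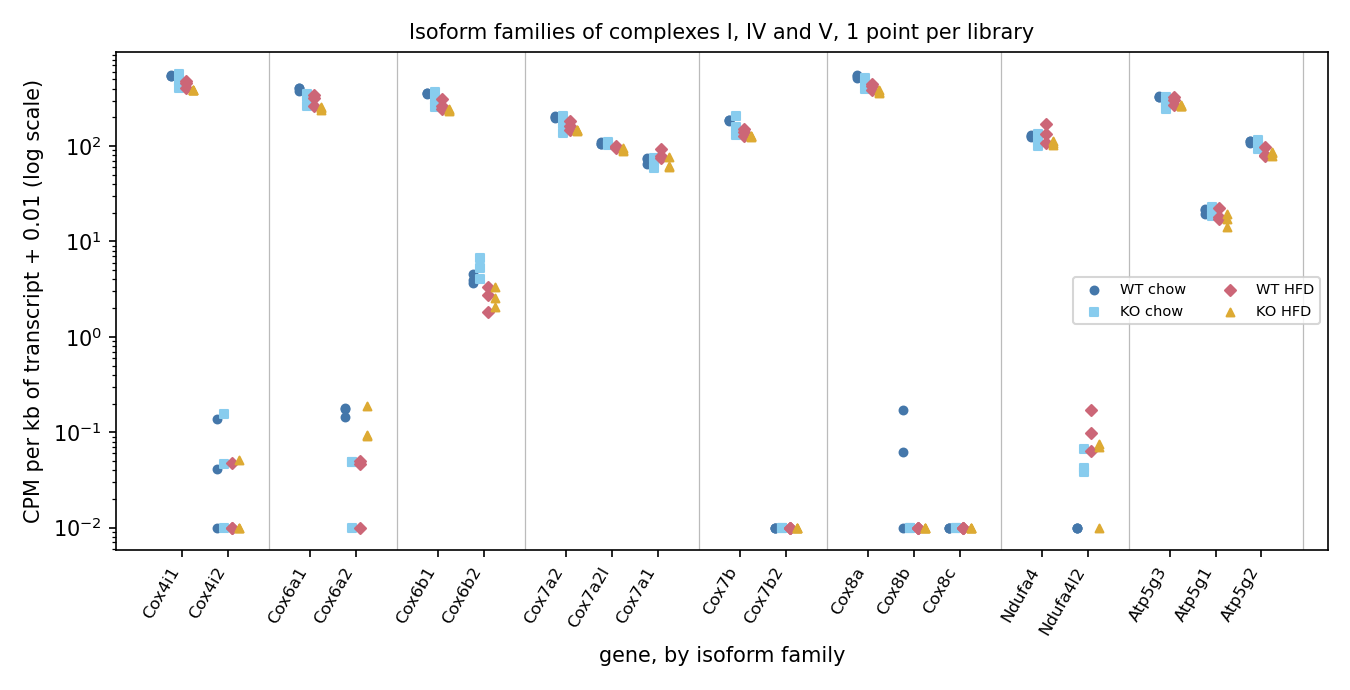
Level of each isoform per kb of transcript (CPM per kb plus 0.01, log axis), 1 point per library, coloured by group. Cox4i1 (mean 468), Cox8a (448) and Cox6a1 (317) lead, Cox6b2 lies near 3.67, and Cox4i2, Cox6a2, Cox7b2, Cox8b, Cox8c and Ndufa4l2 lie near the bottom of the axis.

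The diet comparison asked how the members differed after HFD, averaged over the 2 genotypes. The calls in the 2 genomes had opposite signs. Of 79 nuclear members tested, 51 fell and none rose, while of 13 mtDNA members 5 rose and none fell (edgeR quasi-likelihood F test, Benjamini-Hochberg adjusted p under 0.05). Over all genes tested, 12.9% were called higher and 13.3% were called lower. The median log2 fold change was -0.25 for the nuclear members, with 74 of 79 below 0, and 0.13 for the mtDNA members, against 0.01 over all genes. The nuclear values ran from -0.83 to 0.10 on the log2 scale. In bulk RNA, fewer cells of a type and less RNA per cell cannot be told apart.

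The number of nuclear calls moved with the proximal score, which Lct, Cyp2b10 and Gata4 carry, and with single libraries. The enterocyte and distal ileum scores moved with diet too, and their part in the result was not tested. With the proximal score as a covariate, 2 members were called lower and 3 higher, while 4.31% of all genes were called lower; the median nuclear log2 fold change was then -0.17, with 71 of 79 below 0. The 2 nuclear genes were Ndufv3 and Atp5g2, and the 3 mtDNA genes were mt-Nd2, mt-Nd4 and mt-Nd5. Diet and proximal score move together in these groups, so their parts cannot be told apart. Without WT chow 1 and KO chow 3, which an earlier analysis of these data placed between the other libraries of their groups, 26 members were called lower, against 7.64% of all genes.

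Among the catalytic core of complex I, Ndufv1 and Ndufs1 fell. Ndufv1, which holds the flavin that accepts electrons from NADH, had 131, 129 and 130 CPM in WT chow and 122, 102 and 112 CPM in KO chow. On HFD it had 120, 109 and 94.5 CPM in WT and 95.2, 95.3 and 97.1 CPM in KO. Each WT HFD value lay below the WT chow range and each KO HFD value below the KO chow range, and the averaged log2 fold change was -0.25 ± 0.06 (SE; adjusted p = 0.00895). Ndufs1, which carries iron-sulfur clusters, changed by -0.18 ± 0.06 (adjusted p = 0.0341).

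Over complex I, 20 of 36 nuclear members fell and none rose, with a median of -0.23. Ndufv3, a small subunit of the NADH-oxidising module, went from 56.0, 54.9 and 57.9 CPM in WT chow to 45.7, 44.7 and 39.5 CPM in WT HFD, and from 54, 44.4 and 50.1 CPM in KO chow to 41.0, 43.4 and 42.4 CPM in KO HFD. The groups did not overlap in either genotype, and the averaged difference of -0.30 ± 0.06 (adjusted p = 0.00173) had the smallest p of the nuclear complex I members. Ndufs7, which holds the last iron-sulfur cluster before the quinone, had a log2 fold change of -0.26 ± 0.06 (adjusted p = 0.00374). The accessory subunits Ndufa4 and Ndufa6 were the 2 tested nuclear complex I genes with a positive value, 0.01 ± 0.10 and 0.06 ± 0.05, and neither was called.

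In complex II, which also belongs to the TCA cycle, Sdhb and Sdhc fell and Sdha and Sdhd were not called. Sdhc, a membrane anchor, went from 133, 132 and 130 CPM in WT chow to 117, 108 and 96.4 CPM in WT HFD, and from 132, 102 and 115 CPM to 99.3, 96.2 and 98.7 CPM in KO. Neither pair of groups overlapped, with an averaged log2 fold change of -0.27 ± 0.06 (adjusted p = 0.00661). Sdhb, the iron-sulfur subunit, changed by -0.19 ± 0.06 (adjusted p = 0.0316). Sdha, the flavoprotein that oxidises succinate, had 312, 317 and 310 CPM in WT chow and 319, 315 and 299 CPM in WT HFD, which overlap, and its averaged value was 0.01 ± 0.05.

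Complex III fell most evenly: 8 of 9 nuclear members were called lower, with a median of -0.30, and Uqcrb, with 0.07 ± 0.07, was the exception. Cyc1, the cytochrome that hands electrons to cytochrome c, had 199, 189 and 199 CPM in WT chow and 169, 158 and 142 CPM in WT HFD. In KO it had 178, 146 and 162 CPM on chow and 136, 134 and 127 CPM on HFD, so that no group overlapped with its partner on the other diet. The averaged log2 fold change was -0.31 ± 0.06 (adjusted p = 0.00248). The core proteins Uqcrc1 and Uqcrc2 changed by -0.23 ± 0.06 and -0.30 ± 0.08, and the Rieske iron-sulfur protein gene Uqcrfs1 by -0.26 ± 0.07, all called. Uqcr11, a small subunit, had the largest decrease of the complex at -0.37 ± 0.08 (adjusted p = 0.00291).

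Of the 13 nuclear complex IV members tested, 11 fell and none rose, with a median of -0.31. Cox4i1 had 420, 416 and 428 CPM in WT chow, 434, 314 and 366 CPM in KO chow, 372, 347 and 310 CPM in WT HFD, and 294, 299 and 298 CPM in KO HFD. The HFD values lay below the chow values in both genotypes, with an averaged log2 fold change of -0.31 ± 0.07 (adjusted p = 0.00694). Cox7b and Cox6b1, structural subunits, changed by -0.40 ± 0.09 and -0.38 ± 0.08 (adjusted p = 0.00461 and 0.00374). Cox5b fell, at -0.30 ± 0.08, and Cox5a was not called, at -0.19 ± 0.07 (adjusted p = 0.0127 and 0.055).

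The isoforms of complex IV differed in what was called. The testis isoform Cox6b2 had the largest decrease of any member, from 2.69, 2.32 and 2.16 CPM in WT chow and 3.92, 2.37 and 3.08 CPM in KO chow to 1.07, 1.96 and 1.61 CPM in WT HFD and 1.19, 1.49 and 1.93 CPM in KO HFD. Neither pair of groups overlapped. It was 1.77-fold lower on HFD, at -0.83 ± 0.18 (adjusted p = 0.00409), but its level was low throughout. Cox7a2 and Cox7a2l fell, by -0.26 ± 0.08 and -0.17 ± 0.05, while Cox7a1 was not called at 0.10 ± 0.08. The skeletal and heart muscle markers other than Acta1 did not exceed a mean of 1 CPM, and Mb and Myh4 were at 0 in all 12 libraries; Acta1 had 25.8 to 54 CPM on chow and 2.49 to 26.6 CPM on HFD.

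In complex V, 10 of 17 members fell and none rose, with a median of -0.22. Atp5a1, the alpha subunit of the catalytic head, had 1275, 1293 and 1286 CPM in WT chow, 1294, 1001 and 1156 CPM in KO chow, 1167, 1102 and 992 CPM in WT HFD and 975, 1019 and 1016 CPM in KO HFD. The WT groups did not overlap and the KO groups did, with an averaged value of -0.22 ± 0.07 (adjusted p = 0.0309). Atp5o, which links head and stator, changed by -0.21 ± 0.07 (adjusted p = 0.0302), while Atp5b and Atp5c1, the beta and gamma subunits, were not called at -0.18 ± 0.07 and -0.12 ± 0.07 (adjusted p = 0.0572 and 0.222). Atp5e, the epsilon subunit, had a log2 fold change of -0.39 ± 0.09 (adjusted p = 0.00692).

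Of the 3 c-ring genes, only Atp5g2 was called. Atp5g2 had 79.2, 81.7 and 83.6 CPM in WT chow and 57.0, 71.4 and 59.6 CPM in WT HFD, and 83.7, 68.6 and 76.7 CPM in KO chow and 57.6, 62.9 and 62.4 CPM in KO HFD. Neither pair overlapped, with an averaged log2 fold change of -0.35 ± 0.06 (adjusted p = 0.00153). Atp5g3 and Atp5g1 had -0.13 ± 0.07 and -0.20 ± 0.08. Differences between the 3 genes were not tested. Atp5g2 shares 87.7% of its 31-base words with the transcribed pseudogene Gm10175, whose mean level was 12.4 CPM, so its counts are uncertain.

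**Figure D2:**
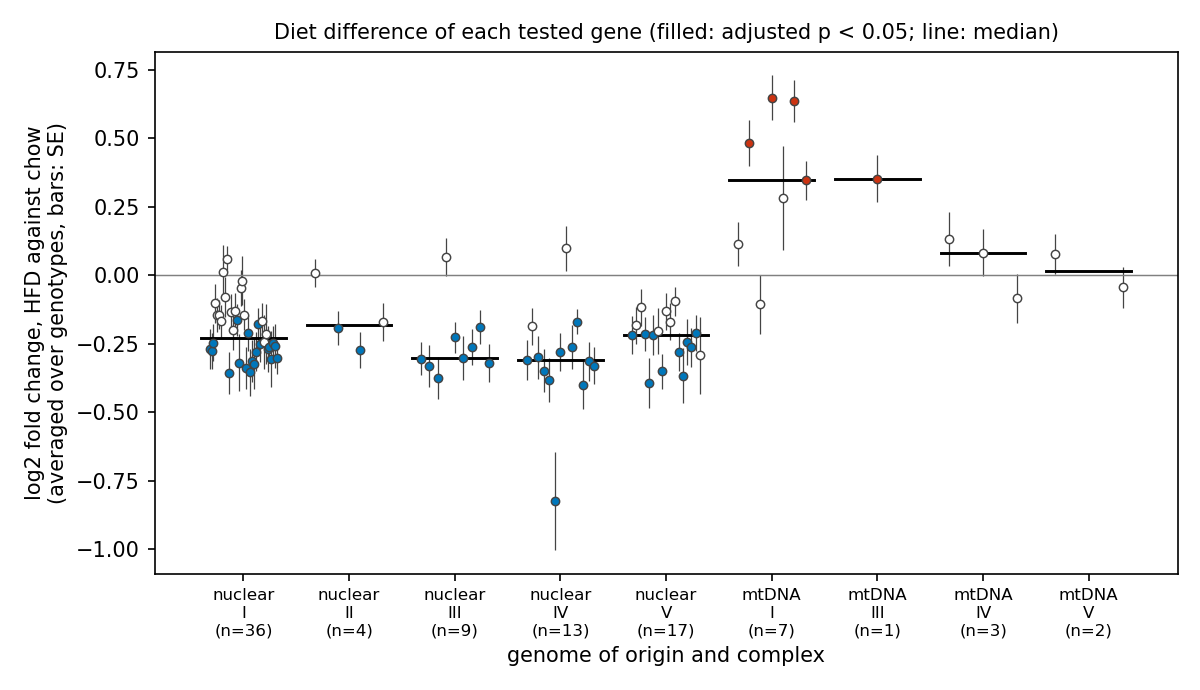
Log2 fold change of each tested member, HFD against chow averaged over genotypes, with its SE, by genome and complex. Filled points have an adjusted p under 0.05. Nearly all nuclear genes lie below 0, with medians of -0.18 to -0.31 per complex, and mt-Nd2, mt-Nd4, mt-Nd5, mt-Nd6 and mt-Cytb lie between 0.35 and 0.65.

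The mtDNA genes that rose were 4 complex I subunits and the cytochrome b of complex III. mt-Nd4, a proton-pumping subunit, had 336, 347 and 340 CPM in WT chow and 407, 557 and 474 CPM in KO chow. It had 676, 544 and 634 CPM in WT HFD and 593, 641 and 715 CPM in KO HFD, above the chow range in each genotype. The averaged log2 fold change was 0.65 ± 0.08, or 1.57-fold (adjusted p = 0.000117). In WT alone it was 0.86 ± 0.12 and in KO alone 0.44 ± 0.11, both called, the KO call being lost in 9 of 24 other settings.

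mt-Nd5, a homologous pump subunit, had 282, 295 and 276 CPM in WT chow, 366, 435 and 392 CPM in KO chow, 560, 433 and 545 CPM in WT HFD and 473, 534 and 586 CPM in KO HFD. WT chow was lowest and did not overlap with any other group, and the averaged difference by diet was 0.63 ± 0.08 (adjusted p = 9.59e-05). mt-Nd2 rose, at 0.48 ± 0.08 (adjusted p = 0.00107), from 150, 153 and 143 CPM in WT chow to 274, 211 and 231 CPM in WT HFD. In KO, mt-Nd2 had 164, 231 and 193 CPM on chow and 222, 233 and 260 CPM on HFD, which overlap.

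mt-Nd6 is the 1 member on the other strand of mtDNA (chrM:13552-14070, minus strand), and its end overlaps the end of mt-Nd5. It had 30.2, 29.2 and 30.6 CPM in WT chow and 50.8, 39.997 and 44.8 CPM in WT HFD, against 42.6, 48.6 and 42.7 CPM in KO chow and 42.0, 47.7 and 54.2 CPM in KO HFD. The WT groups did not overlap and the KO groups did, with an averaged value of 0.35 ± 0.07 (adjusted p = 0.00315). The library kit keeps strand, but the strand setting used in counting is not given in the sources used here, and without it reads of mt-Nd6 and of the opposite strand could not be told apart. mt-Cytb rose from 781, 825 and 755 CPM in WT chow to 1067, 1088 and 1115 CPM in WT HFD, and had 842, 1261 and 1044 CPM in KO chow and 1171, 1182 and 1348 CPM in KO HFD. Its averaged difference was 0.35 ± 0.08 (adjusted p = 0.00755).

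The other 8 mtDNA genes were not called. mt-Nd1, which holds part of the quinone tunnel, had 774 to 838 CPM in WT chow, 771 to 1144 CPM in KO chow, 896 to 934 CPM in WT HFD and 940 to 1047 CPM in KO HFD, and the WT groups did not overlap. mt-Nd3 had 177 to 199, 148 to 180, 118 to 192 and 156 to 192 CPM in the same order of groups. These ranges overlap in the counts as deposited. mt-Co1 had 6956 to 7883 CPM in WT chow, 7287 to 10496 CPM in KO chow, 6672 to 8996 CPM in WT HFD and 9329 to 10522 CPM in KO HFD, with an averaged value of 0.13 ± 0.10. mt-Co3 had 2691 to 3051, 2530 to 2984, 1904 to 2623 and 2656 to 3064 CPM. As deposited, its WT HFD values thus lay below WT chow without overlap. mt-Atp6 had 502 to 571, 578 to 652, 517 to 615 and 584 to 748 CPM. mt-Co2 and mt-Co3, the other mtDNA subunits of complex IV, had 0.08 ± 0.08 and -0.08 ± 0.09, and the ATP synthase genes mt-Atp6 and mt-Atp8 had 0.08 ± 0.07 and -0.05 ± 0.07. mt-Nd1 and mt-Nd3 had 0.11 ± 0.08 and -0.11 ± 0.11, so that within mtDNA complex I the values were unequal.

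Adding the pseudogene reads brought in mt-Nd4l. As deposited it was a low and scattered gene, with 12.8, 11.1 and 7.10 CPM in WT chow and 17.7, 12.4 and 11.3 CPM in WT HFD, and an averaged value of 0.28 ± 0.19. With the reads of Gm10222 added, its averaged value was 0.41 ± 0.09 (adjusted p = 0.00686) and its WT value 0.62 ± 0.13 (adjusted p = 0.00976). mt-Nd4 kept its call, with 0.64 ± 0.08, and mt-Co1, mt-Co2, mt-Co3, mt-Atp6 and mt-Nd3 were again not called, with -0.16 to 0.13. The WT groups of mt-Co3 then overlapped, with 5629 to 5847 CPM on chow and 4572 to 5686 CPM on HFD. For mt-Nd3 HFD then lay below chow without overlap in both genotypes. Its WT values were 528 to 563 CPM on chow and 461 to 527 CPM on HFD, and its KO values 536 to 632 and 488 to 528 CPM.

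**Figure D3:**
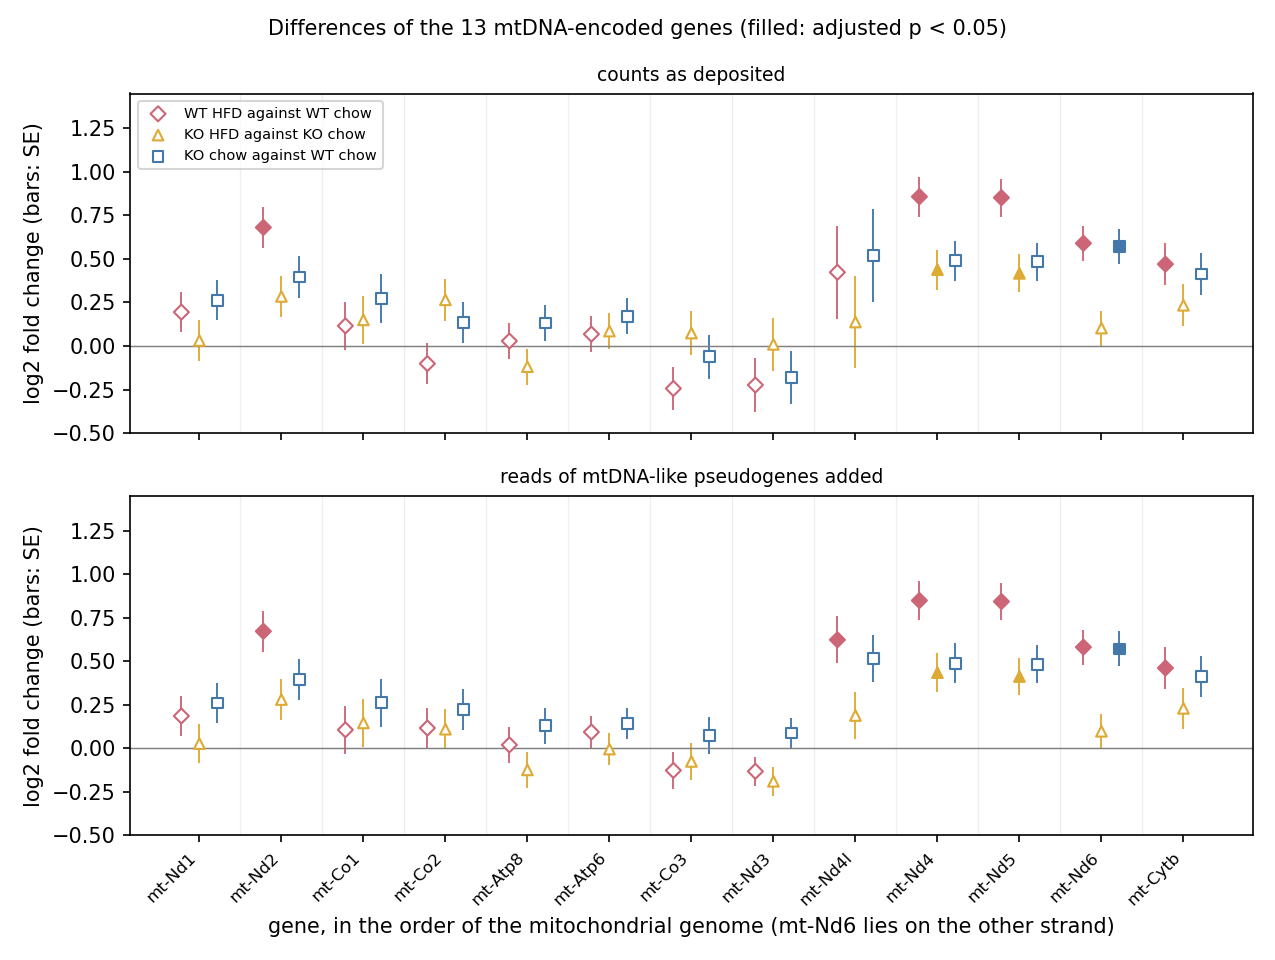
Log2 fold changes with SE of the 13 mtDNA genes in genome order for 3 comparisons, from the counts as deposited (top) and with the reads of mtDNA-like pseudogenes added (bottom). Filled symbols have an adjusted p under 0.05. For WT HFD against WT chow, the called genes are mt-Nd2 and mt-Nd4 to mt-Cytb in the top panel, joined in the lower panel by mt-Nd4l at 0.62, whose SE is smaller there.

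The mtDNA members held 1.39 ± 0.097% of all counts in WT chow, 1.62 ± 0.311% in KO chow, 1.55 ± 0.113% in WT HFD and 1.85 ± 0.108% in KO HFD (SD, n = 3 each). The nuclear members held 1.14 ± 0.0053%, 1.01 ± 0.094%, 1.01 ± 0.124% and 0.894 ± 0.036%. With the pseudogene reads added, the mtDNA shares were 2.0, 2.32, 2.21 and 2.52%. The means of WT chow and KO HFD were thus at opposite ends of the 2 shares, and their ranges did not overlap. Between the other groups most ranges overlapped. For mtDNA, WT chow (1.31 to 1.5%) overlapped KO chow (1.32 to 1.94%) and WT HFD (1.43 to 1.64%). KO HFD (1.72 to 1.91%) lay within KO chow but above WT HFD. For nuclear members WT HFD (0.895 to 1.14%) overlapped WT chow (1.13 to 1.14%), while KO chow (0.914 to 1.1%) lay below WT chow. The mitochondrial ribosomal RNAs are no members. Of these, mt-Rnr1 had 1961 to 2070 CPM in WT chow and 3277 to 4597 CPM in WT HFD. In KO it had 2267 to 2405 CPM on chow and 3129 to 4509 CPM on HFD. mt-Rnr2 had 16385 to 17219 CPM in WT chow and 22323 to 28629 CPM in WT HFD. Its KO values were 20031 to 21437 CPM on chow and 23002 to 31493 CPM on HFD. For both RNAs KO chow lay above WT chow, and HFD above chow in each genotype, without overlap.

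Within WT, HFD against chow gave 16 nuclear members lower and 5 mtDNA members higher, when 6.57% and 6.8% of all genes were called lower and higher. The nuclear calls were 4 in complex I, 1 in complex II, 5 in complex III, 5 in complex IV and 1 in complex V. The largest log2 fold changes among those called were those of Cox7b, Uqcr11, Cox6b1 and Uqcr10, at -0.41 ± 0.12, -0.38 ± 0.11, -0.38 ± 0.12 and -0.38 ± 0.11 (adjusted p = 0.04, 0.0299, 0.0417 and 0.0337). For 57 of the 79 nuclear members every WT HFD library lay below every WT chow library, or 72.2%, against 18.6% of all genes tested. The mtDNA genes called were mt-Nd2, mt-Nd4, mt-Nd5, mt-Nd6 and mt-Cytb.

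These WT calls changed with the libraries. Members called lower numbered 2, 2 and 1 without WT chow 1, 2 or 3, 2 and 1 without WT HFD 2 or WT HFD 3, and 35 without WT HFD 1, and 35 in a fit of the WT libraries alone. The calls over all genes, in either direction, moved as well: 2353 in the fit of all libraries, 896, 1150 and 895 without WT chow 1, 2 or 3, 1300 and 1198 without WT HFD 2 or WT HFD 3, 2524 without WT HFD 1, and 3415 in the fit of WT alone. WT HFD 1 had the highest level of its group for 75 of the 79 nuclear members and WT HFD 3 the lowest for 74. With the smooth muscle score as a covariate, 2 members were called lower and 922 of all genes were called in either direction. With the proximal score no member was called lower and 173 of all genes were called.

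Within KO, HFD against chow gave 3 nuclear members lower and 2 mtDNA members higher, when 4.76% and 3.44% of all genes were called lower and higher. The nuclear genes were Cox6b2 at -1.02 ± 0.25, Atp5g2 at -0.32 ± 0.09 and Ndufs7 at -0.30 ± 0.08 (adjusted p = 0.0245, 0.0419 and 0.0327), and the mtDNA genes mt-Nd4 and mt-Nd5 at 0.44 ± 0.11 and 0.42 ± 0.11. The median nuclear value was -0.23, with 75 of 79 below 0, close to the -0.25 in WT, and 29 members, or 36.7%, had no overlap between the KO groups, against 13.1% of all genes. Without KO chow 2, 54 members were called lower, when 8.56% of all genes were called lower, and none without KO chow 1, KO chow 3 or KO HFD 2. No mtDNA member was called in KO without WT chow 1, WT chow 3, KO chow 1, KO chow 3, KO HFD 2 or KO HFD 3, nor in a fit of the KO libraries alone. Over all genes those fits called 335 to 1102 in either direction, against 1444 in the fit of all libraries.

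The KO chow libraries spanned the range of the study. KO chow 1 had the highest level of its group for all 79 nuclear members tested, KO chow 2 the lowest for 77, and the order was reversed in mtDNA, where KO chow 2 was highest and KO chow 1 lowest for 11 of 13 genes each. The median centred log2 level of the nuclear members was 0.23 in KO chow 1, -0.18 in KO chow 2 and 0.03 in KO chow 3, against 0.20 to 0.21 in WT chow. Proximal scores in the 3 libraries were -1.06, 0.67 and 0.40. The library with the WT chow-like score thus also had the WT chow-like nuclear level. In WT HFD, by contrast, the library with the lowest score had the lowest nuclear median. Scores there were 0.77, 0.78 and -0.18, and nuclear medians 0.10, -0.03 and -0.18. The part of region in these levels was not tested. In KO HFD all 3 libraries had medians between -0.19 and -0.18, at scores of -0.23, 0.80 and 0.50.

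**Figure D4:**
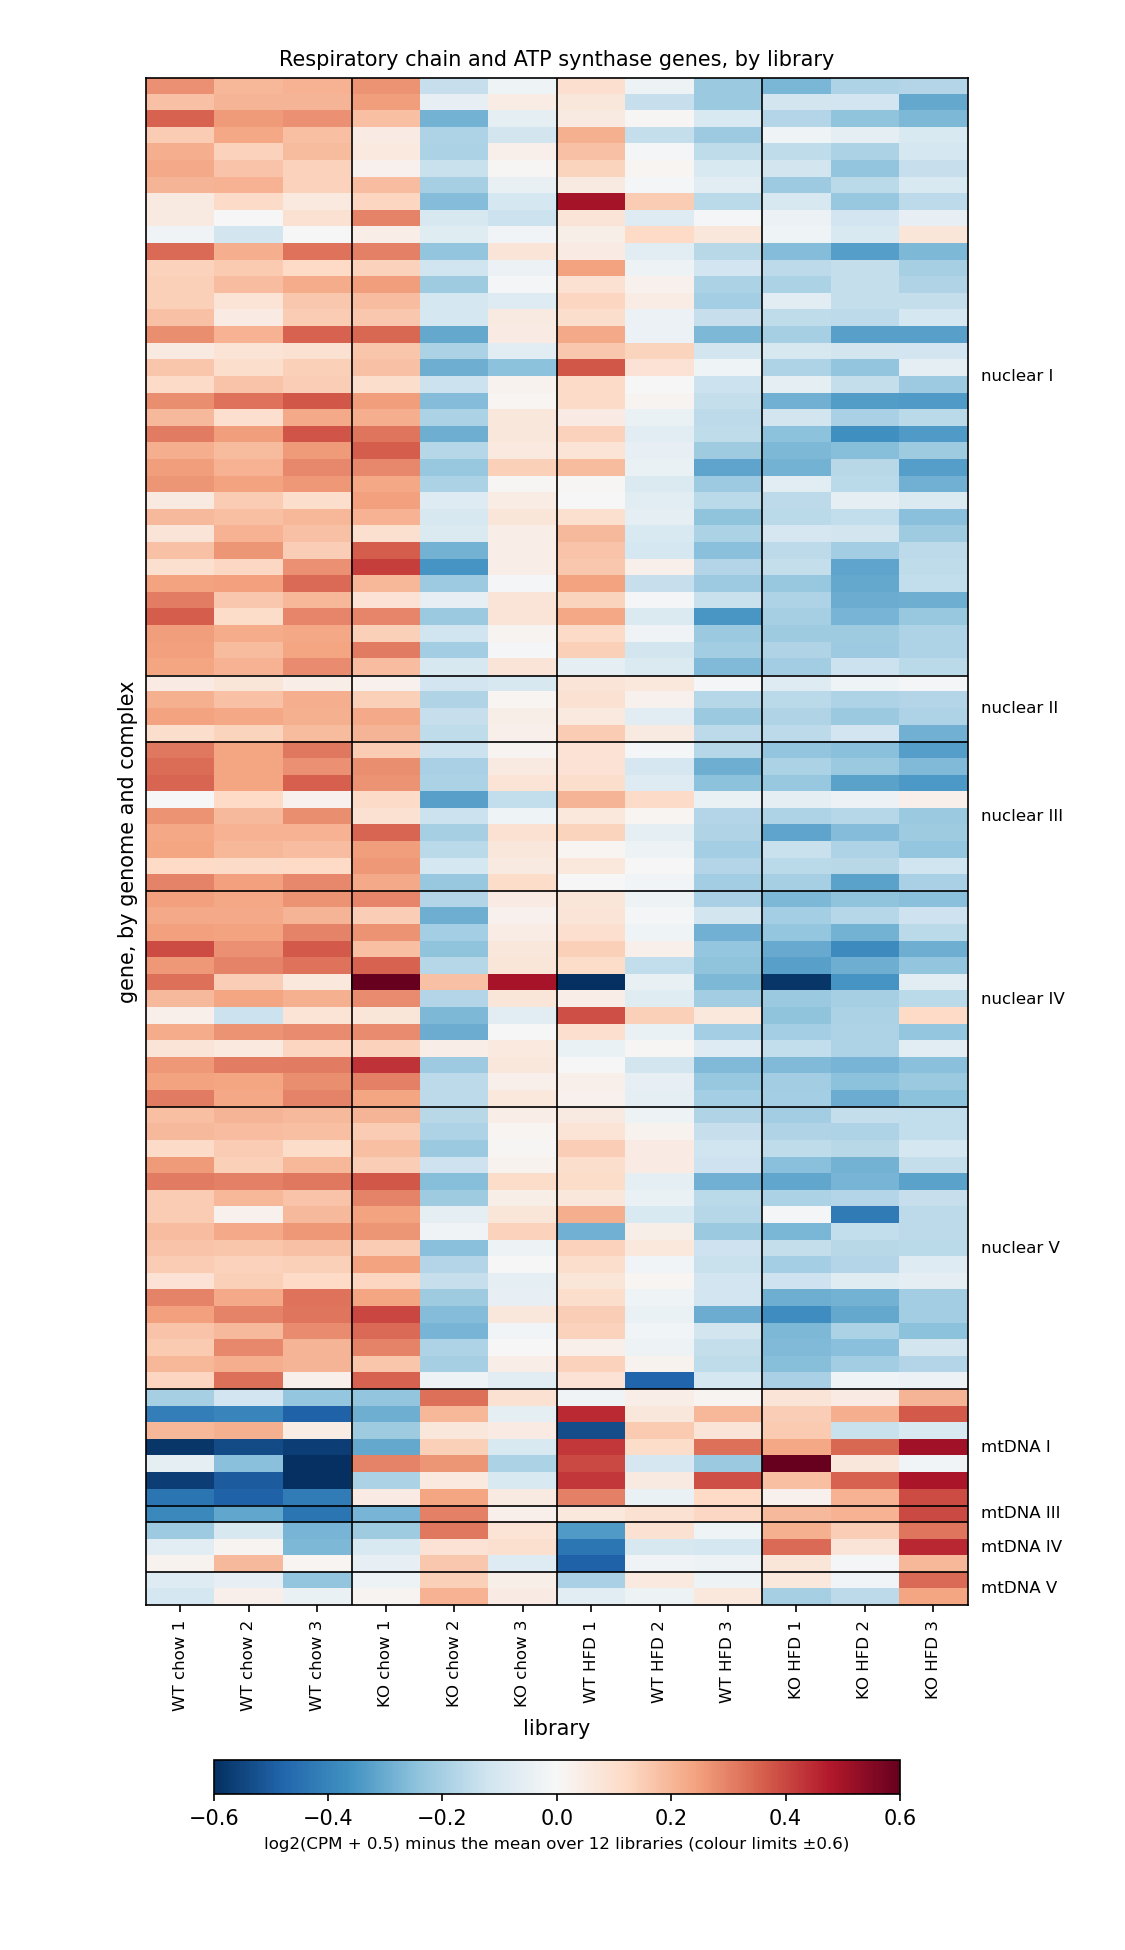
Log2 level of the 92 tested members in each of the 12 libraries, minus the gene's mean over libraries, by genome and complex (red above the mean, blue below, colours saturating at 0.6). Nuclear genes are red in WT chow and KO chow 1 and blue in KO chow 2, WT HFD 3 and KO HFD, and several mtDNA genes show the opposite.

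**Figure D5:**
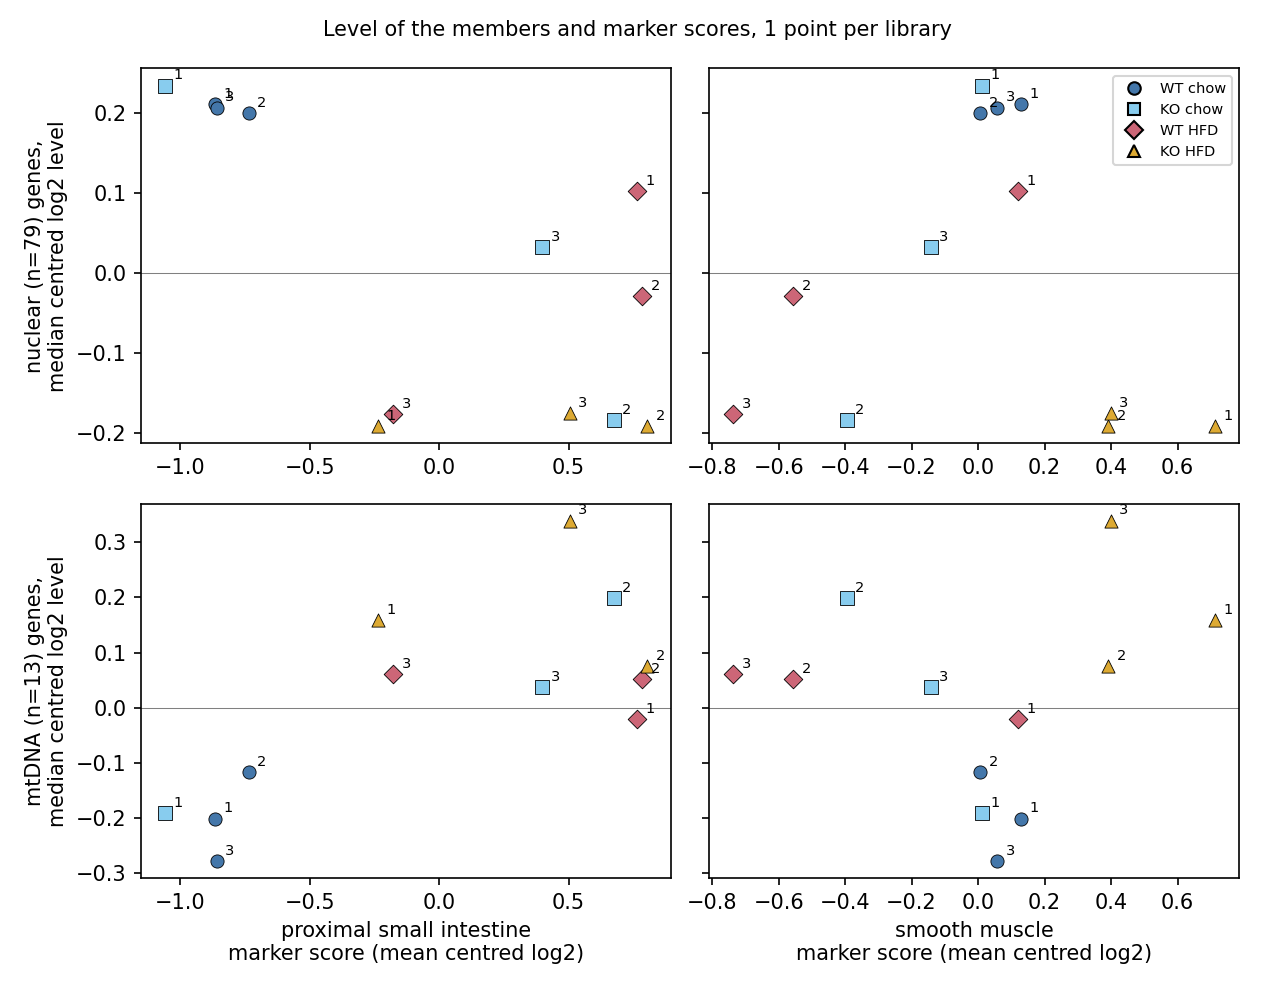
Median centred log2 level of the 79 nuclear (top) and 13 mtDNA (bottom) members in each library against the proximal small intestine and smooth muscle marker scores (numbers are replicates). The 4 libraries with proximal scores below -0.7 have the 4 highest nuclear medians, and the KO HFD libraries have the highest smooth muscle scores with nuclear medians near -0.19.

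The genotype comparison asked how the members differed between PparaΔIE and Pparafl/fl mice. Averaged over diets, 1 member was called higher, mt-Nd6, and 1 lower, Cyc1, when 1.49% of all genes were called. mt-Nd6 had a log2 fold change of 0.33 ± 0.07 (adjusted p = 0.0381) and Cyc1 -0.26 ± 0.06 (adjusted p = 0.0475). For Cyc1 the KO values lay below the WT values on each diet. For mt-Nd6 the KO values lay above the WT values on chow and overlapped them on HFD. The nuclear median was -0.17, with 77 of 79 members below 0. An unadjusted p under 0.05 was reached by 46 nuclear members and by 3427 of all 17602 genes tested. The median over all genes was 0.00.

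The genotype calls depended on single libraries and on the muscle score. Without KO chow 1, 43 members were called lower in the averaged comparison, when 4.1% of all genes were called lower. No member was called without any 1 of the WT chow libraries, KO chow 2, KO chow 3, WT HFD 2, KO HFD 2 or KO HFD 3. The fits with no member called gave 11 to 286 calls over all genes, against 262 in the fit of all libraries. With the smooth muscle score as a covariate, 65 members were called lower, when 8.05% of all genes were called lower. That score was 0.39 to 0.71 in KO HFD and at most 0.13 elsewhere. The parts of KO HFD and of the score therefore cannot be told apart. With the proximal score no member was called, and 113 of all genes were. Smooth muscle markers summed to 93.2 to 120 CPM in KO HFD and 36.6 to 72.8 CPM in the other groups, and their part in the genotype values was not tested beyond this covariate.

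On chow, mt-Nd6 was the 1 member called between KO and WT, when 0.125% of all genes were called, at 0.57 ± 0.10 (adjusted p = 0.0493), and its KO values lay above the WT values. This call was lost in 11 of 24 other settings, among them leaving out any 1 of the WT chow libraries, KO chow 2, KO chow 3, WT HFD 3 or KO HFD 2, the replicate block and both covariates, with values of 0.50 to 0.61. No nuclear member was called by edgeR or by the DESeq2 Wald test, and the nuclear median was -0.18. In edgeR, 23 nuclear members had an unadjusted p under 0.05, as did 2293 of all 17602 genes tested. mt-Nd4 and mt-Nd5 had 0.49 ± 0.11 and 0.48 ± 0.11 (adjusted p = 0.14 and 0.131). mt-Nd2 and mt-Cytb had 0.40 ± 0.12 and 0.41 ± 0.12 (adjusted p = 0.217 and 0.202). In all 4 genes the KO chow libraries lay above the WT chow libraries. Without KO chow 1, 6 members, all of mtDNA, were called higher and 6 members lower, and the calls over all genes went from 22 to 517.

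On HFD no member was called between KO and WT by edgeR, when 0.29% of all genes were called, and 1 by DESeq2. An unadjusted p under 0.05 was reached by 16 nuclear and 2 mtDNA members, and by 2289 of all 17602 genes tested. The nuclear median was -0.16, with 78 of 79 below 0. mt-Co2 had the largest value of the mtDNA genes, 0.50 ± 0.12 (adjusted p = 0.109), with 896, 747 and 971 CPM in KO HFD against 525, 663 and 658 CPM in WT HFD. That gene shares nearly all of its sequence with the pseudogene Gm28661. With the pseudogene reads added, its value was 0.22 ± 0.12 (adjusted p = 0.455). The largest value was then that of mt-Co1, at 0.30 ± 0.14, also not called. With the smooth muscle score as a covariate, 46 members were called lower, when 4.74% of all genes were called lower. Genotype and that score move together on HFD, so their parts cannot be told apart.

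The interaction of genotype and diet, which tests whether the diet difference was the same in both genotypes, called none of the members with edgeR or DESeq2, when 0.00568% of all genes were called. No nuclear member and 5 mtDNA members had an unadjusted p under 0.05, against 1116 of all 17602 genes tested. The largest mtDNA interaction was that of mt-Nd6, at -0.49 ± 0.14 (adjusted p = 0.591), followed by mt-Nd5 and mt-Nd4 at -0.43 ± 0.15 and -0.42 ± 0.16. Diet differences in WT that were called and in KO that were not are therefore not shown to differ.

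Promoters of the nuclear members were searched because many of these genes are known targets of NRF1, GABPA and YY1, factors that bind promoters of respiratory genes. RefSeq windows from 250 bases before to 50 bases after the start site (GRCm38.p6) matched 68 of the 85 nuclear members. The NRF1 core GCGCATGC, on either strand, occurred in 10 of these (14.7%), against 4.10% of protein-coding genes and 5.32% of tested genes with a window. CCGGAAG, a core of GABPA and other ETS factors, occurred in 16 (23.5%, against 18.2% of tested genes), and AAGATGG, a YY1 core, in 11 (16.2%, against 7.87%). CAAGGTCA, bound by ERRA, occurred in 4 (5.88%, against 1.4%), CCAAT in 30 (44.1%, against 42.5%), and the perfect DR1 repeat bound by PPAR dimers in 0 of 68 (against 0.07%). A match is a description of the letters only.

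Of the 10 members with the NRF1 core, 8 were called lower on HFD, as were 40 of the 66 tested members with a window. The stretch round the core is shown for 1 of the 8 in each complex, that with the smallest p, to set the element beside the genes that moved together. Capitals mark the core or its reverse complement, and each stretch reads 5′ to 3′ on the gene's strand.
Ndufa11, complex I, chr17:56717662-56717749, plus strand: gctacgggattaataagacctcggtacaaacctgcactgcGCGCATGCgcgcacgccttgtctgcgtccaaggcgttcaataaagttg
Sdhb, complex II, chr4:140961177-140961264, plus strand: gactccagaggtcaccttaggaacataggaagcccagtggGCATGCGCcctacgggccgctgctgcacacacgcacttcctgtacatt
Uqcr11, complex III, chr10:80406792-80406865, minus strand: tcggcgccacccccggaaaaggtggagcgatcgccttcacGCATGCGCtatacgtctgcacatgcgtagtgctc
Cox6a1, complex IV, chr5:115349073-115349160, minus strand: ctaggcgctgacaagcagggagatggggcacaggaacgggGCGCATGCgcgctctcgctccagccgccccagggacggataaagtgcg
Atp5g2, complex V, chr15:102671042-102671129, minus strand: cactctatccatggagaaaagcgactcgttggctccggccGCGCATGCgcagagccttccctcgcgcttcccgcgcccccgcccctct
The core starts 60, 54, 4, 162 and 42 bases before the start site in Ndufa11, Sdhb, Uqcr11, Cox6a1 and Atp5g2. Their averaged log2 fold changes by diet were -0.25, -0.19, -0.37, -0.35 and -0.35. Ndufa6 and Ndufa8 also hold the core and were not called, at 0.06 and -0.13.

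The transcription factors themselves did not move as a group. Of 16 tested regulators of mitochondrial biogenesis, 3 rose and 3 fell on HFD (averaged), or 18.8% each way against 12.9% and 13.3% of all genes, with a median of 0.01. Beside Ppara, Gabpa rose by 0.24 ± 0.05, and Ppargc1a, a coactivator of mitochondrial genes, by 0.29 ± 0.10 (adjusted p = 0.00315 and 0.0477), while its relative Ppargc1b fell by 0.23 ± 0.08 (adjusted p = 0.0427). Pparg, the adipogenic relative of Ppara, fell, with a log2 fold change of -1.26 ± 0.09 (adjusted p = 3.49e-06). Nrf1, Esrra and Tfam, the mtDNA packaging and transcription factor, had 0.02 ± 0.05, -0.13 ± 0.05 and 0.04 ± 0.06 and were not called. Of 28 genes for mtDNA transcription, replication and RNA processing, 1 fell (Tbrg4, -0.22 ± 0.06) and none rose, so this list had no call that matched the rise of the 5 mtDNA members.

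Neighbouring mitochondrial pathways had medians nearer 0 than the nuclear subunits. Of 14 tested TCA cycle genes outside complex II, 6 fell and none rose, with a median of -0.15; Idh2, Suclg2 and Fh1, which encode matrix enzymes of the cycle, had -0.33 ± 0.06, -0.28 ± 0.05 and -0.32 ± 0.08. Of 78 mitochondrial ribosomal protein genes, which serve translation of the mtDNA messages, 17 fell and none rose, with a median of -0.15, led by Mrpl41, Mrpl27 and Mrpl54 at -0.50 ± 0.09, -0.42 ± 0.08 and -0.46 ± 0.09. Of 47 assembly factors 8 fell and 1 rose, with a median of -0.13, and the 17.0% that fell were near the 13.3% of all genes. The fallers with the smallest p were Foxred1, a complex I factor, Surf1, a complex IV factor, and Ndufaf7, a complex I factor, at -0.37 ± 0.08, -0.24 ± 0.06 and -0.41 ± 0.10, and Sco2, a copper chaperone of complex IV, rose by 0.52 ± 0.16.

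The carriers and inner membrane partners were split. Of 28 tested, 10 fell (35.7%, against 13.3% of all genes) and 4 rose, a share of 14.3% that was near the 12.9% of all genes. Slc25a4, the ADP/ATP carrier isoform of muscle and heart, rose by 0.99 ± 0.13 (adjusted p = 0.000509), from 34.3, 27.1 and 38.8 CPM in WT chow to 75.3, 68.7 and 68.9 CPM in WT HFD, and from 21.7, 32.2 and 28.0 CPM to 54.6, 37.6 and 59.9 CPM in KO. The HFD values lay above the chow values in both genotypes. Slc25a5, the isoform that dominates here at 1042 to 1652 CPM, fell by 0.34 ± 0.08 (adjusted p = 0.00588).

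The other 3 carrier genes that rose were Etfb, Etfdh and Coq4. Etfb and Etfdh, which pass electrons from acyl-CoA dehydrogenases to the quinone pool, rose by 0.21 ± 0.07 and 0.23 ± 0.07 on HFD (adjusted p = 0.0403 and 0.0183), and Coq4, for quinone synthesis, by 0.44 ± 0.09 (adjusted p = 0.00307). Coq4 had 11.2, 11.1 and 11.6 CPM in WT chow, 19.7, 16.6 and 13.6 CPM in WT HFD, 8.58, 7.56 and 7.70 CPM in KO chow and 9.34, 9.14 and 11.4 CPM in KO HFD. Across genotypes Coq4 and Etfb fell in KO, with log2 fold changes of -0.63 ± 0.09 and -0.36 ± 0.07 (adjusted p = 0.00942 and 0.0299), while no complex subunit of the nuclear genome other than Cyc1 was called there. Cycs, cytochrome c itself, fell by 0.39 ± 0.11 on HFD (adjusted p = 0.0229), and Atpif1, the inhibitor of ATP synthase, and the uncoupling protein gene Ucp2 were not called, at -0.17 ± 0.07 and -0.02 ± 0.05.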

How the data were processed

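The authors deposited expected counts per gene from RSEM for 12 libraries; the submitters' processing notes name Trimmomatic, STAR, Picard, RSEM and the mm10 build, giving neither a version nor a role for any of them. Which annotation was counted, and with which strand option, is not given in the sources used here. Between 12.3% and 13.2% of the values in a library were not whole, so expected counts were rounded. IDs were matched without their version to GENCODE vM21 (47224 of 47643), which also gave the transcript lengths and mtDNA sequences.

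All 12 libraries entered 1 edgeR (4.0.16, R 4.3.3) quasi-likelihood fit of 4 group means, with TMM scaling, filterByExpr and robust dispersions, from which 7 contrasts were taken; p-values were adjusted by Benjamini-Hochberg over all 17602 genes tested, at a threshold of 0.05. The SE is the log2 fold change divided by the root of F. CPM uses TMM-scaled library sizes, and centred log2 levels add 0.5 CPM. On simulated counts for HFD against chow averaged over genotypes (17321 genes), 27% of genes changed 1.2-fold, 94% of those changed 1.5-fold and 100% of those changed 2-fold were called. The simulation changed 100, 50 and 50 genes by these folds, none of them low in level, while the data gave 4613 calls. These shares therefore need not hold for the data.

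The members and gene lists were chosen with earlier results of these data known. Genes named were the mtDNA members, the members with the 4 largest called changes each way in a contrast, catalytic or core subunits, isoform families, members below the filter, up to 3 called genes per pathway list, and a set of regulators and carriers; Ndufv3 and other called members were added after their values were seen. Alternatives were DESeq2 (1.42.0), other scalings and filters, the compared groups alone, marker scores as covariates, a replicate block, and each library left out. The result for 1 member is not reported here.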

Additional observations from a re-analysis of the deposited data

How the results depend on the processing

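No called member that the text names changed sign under the settings run. For the called genes outside the members, signs were not compared between settings. The median interaction of the nuclear members did, from 0.01 to -0.37 (77 of 79 negative) with the smooth muscle score as covariate and to -0.08 without KO chow 2, and that of the mtDNA members went from -0.16 to 0.14 with the smooth muscle score. Numbers of members called (higher and lower together) that moved by over 1.5 times were as follows. With the DESeq2 Wald test they were 4 for KO against WT on chow and 1 on HFD. They were 33 for HFD against chow in WT, 22 in KO, and 18 for KO against WT averaged. Over all genes DESeq2 called 182, 289, 2925, 2154 and 957, against 22, 51, 2353, 1444 and 262 in the fit of all libraries. That fit called 4613 of all genes for HFD averaged and 1 for the interaction. Without a filter on low counts they were 3 for KO against WT on chow, 1 on HFD, 17 for HFD in KO and 8 for the averaged genotype; with the stricter filter of 50 counts in 3 libraries HFD in KO gave 9. With only the groups compared they were 2 for KO on chow, 40 for HFD in WT and 0 for HFD in KO. With the proximal score as covariate they were 0 for KO on chow, 2 and 1 for HFD in WT and KO, 5 for HFD averaged and 0 for KO averaged. With the smooth muscle score as covariate they were 0 for KO on chow, 49 for KO on HFD, 7 and 64 for HFD in WT and KO, 1 for the interaction and 72 for KO averaged. With WT chow 1 and KO chow 3 both left out they were 0 for KO on chow, 4 and 0 for HFD in WT and KO, 30 for HFD averaged and 0 for KO averaged. Scaling on protein-coding genes gave 1 for KO averaged. For the settings after DESeq2, calls over all genes, in the order used above, moved as well. They were 49, 94, 1404 and 375 without a filter and 1581 with the stricter filter. The compared groups alone gave 54, 3415 and 335. The proximal score gave 8, 173, 1098, 1457 and 113, and the smooth muscle score 20, 1541, 922, 2648, 60 and 2766. Leaving out WT chow 1 and KO chow 3 gave 1, 458, 185, 2371 and 3, and scaling on protein-coding genes 296. Some of these settings hold fewer libraries, and the cause of the changes was not tested.

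Leaving out each library in turn gave 0 to 12 members for KO on chow and 5 to 40 for HFD in WT. It gave 0 to 58 for HFD in KO and 0 to 50 for KO averaged. The highest came without KO chow 1 (12 and 50), without WT HFD 1 or KO chow 2 (40) and without KO chow 2 (58). Over all genes the calls ran from 1 to 517, 895 to 3089, 451 to 2551 and 11 to 1463 in the same order.

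Replicate numbers share only a number: same-numbered samples had deviations correlated at -0.11 to 0.14, with 3 of 18 pairs over 0.1. With a replicate block, 0 members were called for KO on chow, 10 for HFD in KO and 8 for KO averaged. The same fit called 14, 1463 and 378 of all genes.

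As shares of protein-coding counts, mtDNA members held 1.70, 2.02, 1.91 and 2.35% in WT chow, KO chow, WT HFD and KO HFD. Nuclear members held 1.4, 1.25, 1.24 and 1.14% in the same order. With ribosomal RNA genes and mitochondrial transfer RNA genes left out of the total, nuclear members held 1.16% in WT chow. With 3 libraries a group, of genes simulated with a 1.2-fold change between KO and WT on chow (17320 genes), 5% were called.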
